A study of Mus musculus with 6 samples.

Results

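Complement is a set of proteins that mark cells, debris and microbes for uptake and lysis. In the classical pathway, C1q, a hexamer of trimers built from 3 kinds of chain, recognizes the target. Of the proteases bound to it, C1r activates C1s, and C1s cleaves C4 and then C2. The enzyme so formed cleaves C3, on which the pathways of complement converge, and the fragment C3a acts on leukocytes through its receptor. C1q differs from most plasma complement proteins in that macrophages and related cells are its main source, while the liver makes most of the circulating C3 and C4.

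The genes described here are 9 chosen by symbol, namely *C1qa*, *C1qb* and *C1qc* for the C1q chains, *C1ra* and *C1s1* for the proteases, *C4b* and *C3* for the cleaved components, *Serping1* for the C1 inhibitor, and *C3ar1* for the receptor of C3a. All 9 were found among the 14016 rows of the deposited table. The RNA came from quadriceps muscle of WT mice (3 samples, labelled B6) and GATA-1 mutant mice (3 samples, the ΔdblGATA strain, eosinophil-deficient through a germline deletion of a GATA-binding site in the *Gata1* promoter), taken 7 days after volumetric muscle loss. In this surgery a part of the muscle is cut out, and none of these animals received an implant; the study describes its WT mice as female C57BL/6 animals and gives saline to controls. RNA with a poly(A) tail was sequenced as paired ends.

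The value used for each gene is its mean log2 CPM (CPM being the counts of a gene scaled to a common library total), which the authors averaged over all 6 samples. It pools both genotypes and has no value per mouse beside it, so that no SD over mice and no test of its own could be derived from it, and the depth of each library is unknown. The table's other numeric columns hold the authors' own comparison of the genotypes. They were set aside, and no level or difference by genotype is given here. A difference between 2 genes is therefore given as a size only, and whether neighbours in the order differ beyond the spread between mice could not be tested. In bulk muscle, moreover, fewer cells of a type and less RNA per cell cannot be told apart.

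Because a longer transcript gives more fragments, genes were compared per kilobase of their longest coding transcript. This takes the counts behind the means as not already scaled by length, which the study's methods do not state. On this scale the C1q chains stood highest among the 9 genes, followed by *Serping1*, then *C1s1* and *C3*, then *C4b* and *C1ra*, and *C3ar1* stood lowest. The authors' means of the 9 genes ran from 4.46 to 7.30 log2 CPM per gene, with a median of 6.48, while the median over all 14015 genes with a symbol was 4.03. Per kilobase of transcript they ran from 2.35 to 6.80 log2 CPM, with a median of 4.96 against 2.28 over all genes. All 9 members were above the median of all genes on this scale.

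**Figure D1:**
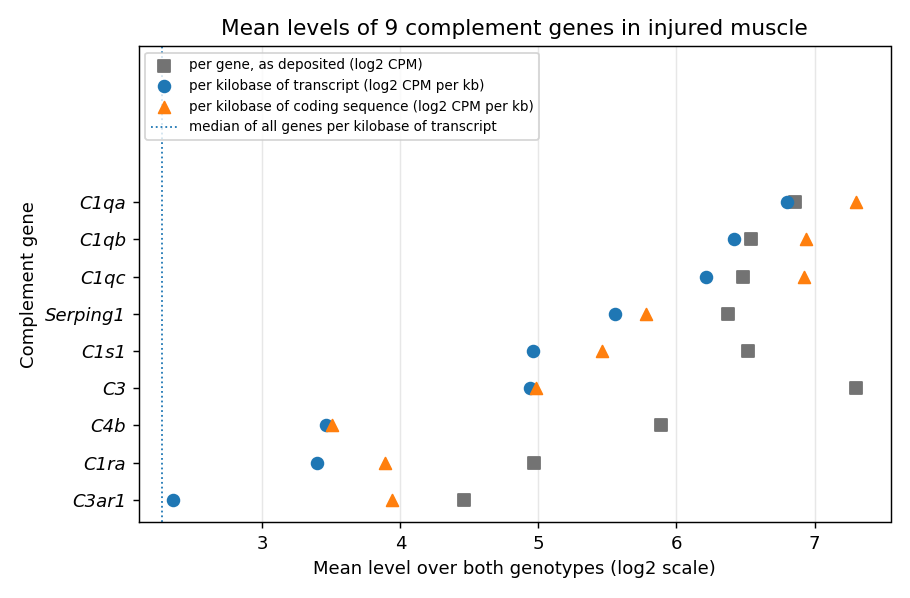
Mean level over both genotypes of each complement gene, on a log2 scale, as deposited (squares), per kilobase of transcript (circles) and per kilobase of coding sequence (triangles). The C1q chains are highest on both per-length scales, *C3* is highest only per gene, and *C3ar1*, at 2.35 log2 CPM per kilobase of transcript, lies close to the dotted median of all genes at 2.28; no error bars are drawn because the means come without values per mouse.

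The C1q chains lie side by side on chromosome 4 of GRCm38, all on the minus strand, with no other protein-coding gene between them in the GENCODE M21 annotation. *C1qb* spans 136880129 to 136886187, *C1qc* 136889804 to 136893065 and *C1qa* 136895917 to 136898803. *C1qa* (ENSMUSG00000036887.5), the A chain, had a mean of 6.86 log2 CPM, which is 116 CPM as a geometric mean. Per kilobase of transcript its level was 6.80 log2 CPM, at or above 96.6% of genes. *C1qb*, the B chain, had a mean of 6.54 log2 CPM, or 6.42 per kilobase of transcript (95.6% of genes). *C1qc*, the C chain, had a mean of 6.48 log2 CPM, or 6.22 per kilobase of transcript (95.1% of genes).

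One chain of each kind enters every C1q trimer. The transcript levels of the chains, which are not amounts of protein, were close to each other. Per kilobase of transcript the level of *C1qa* was 1.31 times that of *C1qb* and 1.50 times that of *C1qc*, and *C1qb* was 1.15 times *C1qc*. With coding length in place of transcript length the ratio of *C1qb* to *C1qc* was 1.01, and that of *C1qa* to *C1qc* 1.30. None of the 31-base words in the longest coding transcripts of these genes occurs in a transcript of another gene, and no annotated gene overlaps them. A pseudoaligner such as kallisto assigns reads by words of this kind. Within this annotation, reads from these longest transcripts would thus share no such word with a second gene. Other transcripts of the C1q genes were not checked. The authors used another build, and the word length they used is not given.

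The proteases of the C1 complex differed more. *C1s1*, which encodes the protease that cleaves C4 and C2, had a mean of 6.52 log2 CPM, or 4.96 per kilobase of transcript, at or above 88.1% of genes. *C1ra*, for the protease that activates it, had a mean of 4.97 log2 CPM, or 3.39 per kilobase of transcript (69.2% of genes). The level of *C1s1* per kilobase of transcript was 2.96 times that of *C1ra*, and with coding length the ratio was 2.98. Both proteases are present in equal number in the C1 complex, but these ratios are of RNA and not of protein. They also depend on how reads shared with other genes were divided, as described below. The level of *C1qc*, the lowest of the C1q chains, was 2.39 times that of *C1s1* per kilobase of transcript, but 0.977 times with no length correction.

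These protease genes have near copies, and the same holds for *C4b*, so that the values of these 3 members depend on how reads common to both copies were divided. *C1ra* (chromosome 6 of GRCm38, 124512405 to 124523443, plus strand) and *C1s1* (124530345 to 124542359, minus strand) are neighbours, and *C1rb* follows them. Of the 31-base words of *C1ra*, 59.6% occur in transcripts of other genes and 56.9% in *C1rb*. Over 2429 aligned bases the *C1ra* and *C1rb* transcripts were 98.0% identical, with the longest identical run at 757 bases. For *C1s1* the share of words found in other genes was 51.9%, and 36.5% were found in *C1s2*, with 95.9% identity over 2661 aligned bases. *C1s1* also overlaps an exon of the annotated gene *Gm16567*. *C4b* shared 48.8% of its words, all with *C4a*, and the aligned transcripts were 96.1% identical.

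The sequences below show where such copies can be told apart. For each pair the stretch of 60 bases with the most differing bases was taken from GENCODE M21 transcripts, 5′ to 3′, and capitals mark the bases that differ.
C1ra: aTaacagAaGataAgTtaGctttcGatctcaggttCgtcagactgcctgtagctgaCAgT
C1rb: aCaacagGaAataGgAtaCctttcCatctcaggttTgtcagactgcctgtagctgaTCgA
C1s1: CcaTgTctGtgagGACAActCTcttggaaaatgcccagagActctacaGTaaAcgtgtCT
C1s2: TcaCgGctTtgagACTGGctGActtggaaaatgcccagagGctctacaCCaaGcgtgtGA
C4b: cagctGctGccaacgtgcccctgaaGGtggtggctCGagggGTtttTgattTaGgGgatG
C4a: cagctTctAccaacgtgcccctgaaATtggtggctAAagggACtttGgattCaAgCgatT
These stretches start at base 2192 of the *C1ra* transcript, 1746 of *C1s1* and 2761 of *C4b*, and hold 11, 17 and 13 differing bases. They are the most divergent windows and do not represent the whole transcripts.

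Among the near copies, *C1s2* and *C4a* were not listed in the table. *C1rb* was listed with a mean of -3.79 log2 CPM, against 4.97 for *C1ra*. The mean of *C1rb* was at or above only 0.0571% of genes, and per kilobase of transcript it was -5.07 log2 CPM. How reads common to the copies were divided was not tested.

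**Figure D2:**
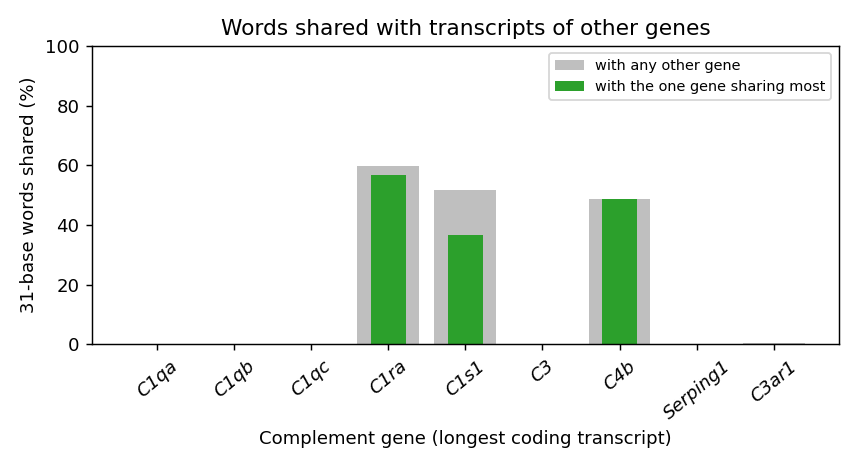
Percent of the 31-base words in the longest coding transcript of each complement gene that occur in transcripts of any other gene (grey) or of the 1 gene that shares most (green). Words are shared to 59.6% by *C1ra*, 51.9% by *C1s1* and 48.8% by *C4b*, while *C1qa*, *C1qb*, *C1qc*, *C3* and *Serping1* share none and *C3ar1* 0.493%.

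*C3* (chromosome 17 of GRCm38, 57203970 to 57228136, minus strand), the component on which the pathways converge, had the highest mean per gene of the 9, at 7.30 log2 CPM or 158 CPM. The microRNA gene *Mir6978* lies within it, outside its exons. Its transcript is also among the longest of them, at 5136 nt, and per kilobase of transcript its level was 4.94 log2 CPM, at or above 87.9% of genes. There *C3* took the sixth place among the members, next to *C1s1*, which was higher than *C3* by 0.02 on the log2 scale and, per kilobase of coding sequence, by 0.48. *C4b* (chromosome 17, 34728380 to 34743882, minus strand), the component cleaved before C3, had a mean of 5.89 log2 CPM, or 3.46 per kilobase of transcript (70.3% of genes). The level of *C3* per kilobase of transcript was 2.79 times that of *C4b*, and this ratio hardly depended on the choice of length because both transcripts are almost wholly coding. It does depend on how reads common to *C4b* and *C4a* were divided, which was not tested.

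*Serping1* (chromosome 2, 84765387 to 84775444, minus strand) encodes the C1 inhibitor, which inactivates C1r and C1s. Its mean was 6.38 log2 CPM, or 5.55 per kilobase of transcript, at or above 92.0% of genes, and it took the fourth place after the C1q chains. Per kilobase of transcript its level was 1.51 times that of *C1s1* and 4.46 times that of *C1ra*, the proteases its product inhibits. With no length correction *Serping1* was 0.906 times *C1s1* and 2.65 times *C1ra*, so that its order with *C1s1* turned. No annotated gene overlaps *Serping1*.

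*C3ar1* (chromosome 6, 122847138 to 122856161, minus strand), the receptor through which C3a acts, had the lowest mean of the 9 at 4.46 log2 CPM. Per kilobase of transcript its level was 2.35 log2 CPM, at or above 51.3% of genes. Most of its transcript of 4305 nt is untranslated, since the coding sequence is 1431 nt long. Per kilobase of coding sequence its level was 3.94 log2 CPM, above those of *C1ra* at 3.89 and *C4b* at 3.51, so its last place depended on the length used. The receptor of C5a, *C5ar1*, had a level of 1.62 log2 CPM per kilobase of transcript, and that of *C3ar1* was 1.66 times as high, or 2.82 times with no length correction.

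Other complement genes were looked up by symbol to place the members in the pathway. Of 45 symbols 31 were listed, with levels per kilobase of transcript from -5.07 to 8.05 log2 CPM and a median of 1.62, and 12 of the 31 were above the median of all genes. *Crry* among these symbols is an older name of *Cr1l*, so the list names this gene under both symbols. *C2*, cleaved with C4 by C1s, stood at 1.38 log2 CPM per kilobase of transcript, lower than *C4b* at 3.46 and *C3* at 4.94. In the alternative pathway all 3 genes were listed. *Cfd*, the factor D protease, which adipocytes secrete in quantity, stood highest of all the complement genes at 8.05 log2 CPM per kilobase of transcript, 2.38 times the level of *C1qa*. Properdin (*Cfp*) stood at 3.83 and factor B (*Cfb*) at 3.25 on the same scale.

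The listed genes of the lectin and terminal pathways stood lower, and others were not listed. A symbol that was not listed has no value here, which is not a measured low level. Of 8 lectin pathway genes 4 were listed, and all 4 were under the median of all genes per kilobase of transcript. The ficolin gene *Fcna* stood at 1.63 and the collectin gene *Colec12* at 1.15 log2 CPM on this scale, but per kilobase of coding sequence *Colec12* was the higher, at 3.00 against 2.09. Per gene *Colec12* had a mean of 4.16 log2 CPM, at or above 52.7% of genes. The protease genes of this pathway, *Masp1* and *Masp2*, stood at -1.93 and -3.36 log2 CPM per kilobase of transcript, against 3.39 for *C1ra* and 4.96 for *C1s1*, which do the corresponding work in the classical pathway. Of 7 genes for the terminal pathway, which forms the membrane attack complex, 4 were listed, with *C8g* highest at 0.83 log2 CPM per kilobase of transcript. *C6*, *C7* and *C8a* stood at -2.60, -2.35 and -4.07, and *Hc* (C5), *C8b* and *C9* were not listed.

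Regulators and receptors spanned a wide range. Among the membrane regulators, which protect host cells, *Cd55* stood at 4.45, *Cd59a* at 4.03, *Cr1l* at 3.92, *Cd59b* at 0.91 and *Cd46* at -0.44 log2 CPM per kilobase of transcript. Of the soluble regulators besides *Serping1*, clusterin (*Clu*) stood at 4.35, vitronectin (*Vtn*) at 3.50, *C4bp* at -0.99 and *Cpn2* at -2.52, so that the C1 inhibitor gene had the highest level of those reported in its group. *Itgam* and *Itgb2*, which encode the chains of complement receptor 3, stood at 2.18 and 3.11, *Itgax* at 1.76, *C5ar2* at -2.05 and *Cr2* at -3.66, and *Vsig4* was not listed. Of the genes linked to C1q by name or binding, *C1qbp* stood at 5.88, *C1qtnf6* at 4.67 and *Cd93* at 3.34.

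**Figure D3:**
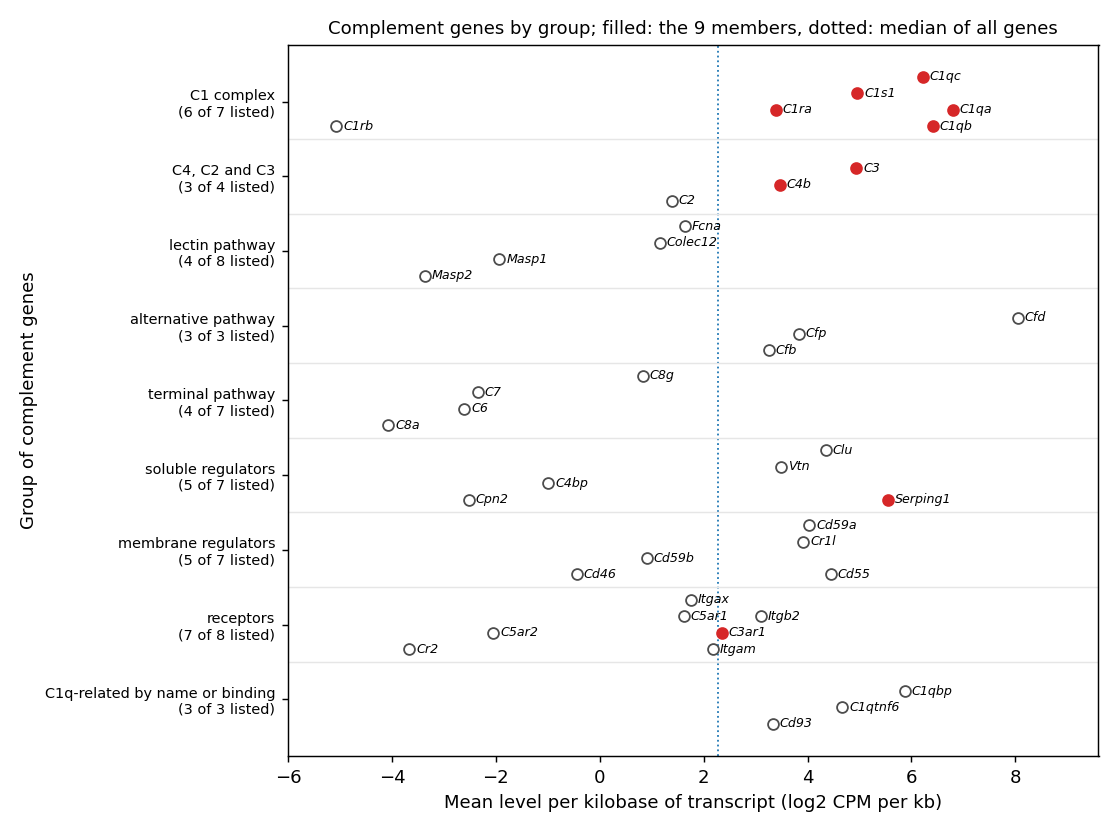
Mean level over both genotypes of the 40 listed complement genes, in log2 CPM per kilobase of transcript, by their place in the pathway, with the 9 members filled and the median of all genes dotted. The members lie to the right of the dotted line, as do all 3 alternative pathway genes, whereas the listed lectin and terminal pathway genes lie to its left; vertical offsets within a row only separate the symbols.

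Markers of cell types in these libraries give a scale for the levels. All 6 muscle fibre markers were listed, at 10.70 to 14.65 log2 CPM per gene, so the labelled tissue was found by its markers. Of 6 macrophage markers 5 were listed, with *Lyz2* at 8.72, *Cd68* at 4.75, *Csf1r* at 3.92, *Mrc1* at 3.30 and *Cd14* at 2.68 log2 CPM per kilobase of transcript, and *Adgre1* was not listed. The level of *C1qa* was 7.37 times that of *Csf1r* and 0.264 times that of *Lyz2* on this scale. With no length correction *C1qa* was 1.63 times *Csf1r*, and per kilobase of coding sequence it was 0.126 times *Lyz2*. All 5 fibroblast markers (2.95 to 9.27), all 4 endothelial markers (2.51 to 4.63) and all 5 red blood cell markers (1.33 to 8.20) were listed, the ranges again in log2 CPM per kilobase of transcript. Of 4 hepatocyte markers *Alb* at -2.43 and *Apoa1* at -3.13 were listed, at or above 3.80% and 1.90% of genes. Of 5 neutrophil markers *S100a8* at 1.57 and *S100a9* at 0.45 were listed, and of 10 eosinophil markers *Ear2* at 0.61. The mean includes mice without eosinophils, and the eosinophil markers were not read by genotype here. Which cells gave rise to the complement transcripts was not tested.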

How the data were processed

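Bulk RNA sequencing of quadriceps muscle was available as 1 deposited table for 6 samples (3 WT, 3 GATA-1 mutant). Per the study's methods, the authors pseudoaligned paired-end reads with kallisto, assigned genes with ensembldb, used edgeR for CPM values, filtered genes on more than 1 CPM in 3 or more samples, took logs and applied TMM normalization. Versions of kallisto and edgeR are not given in the sources used here. The submitters' processing notes name the build GRCm39. The log2 values used here are the authors' deposited means of log2 CPM per gene over all samples. The remaining 5 numeric columns hold the authors' limma comparison of the genotypes (fold change, moderated t, p-values before and after adjustment, log odds) and were neither used nor tested against. The planned genotype test needed values per sample and was not made. Samples are named here by the labels' genotype.

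Of 14016 rows 1 has no symbol. The annotation of GENCODE M21 (build GRCm38) held 13458 symbols as written and 482 more under a RefSeq synonym, giving a transcript length for 13940 genes (99.5%). Levels per kilobase subtract the log2 of the length of the longest coding transcript in kilobases (the longest transcript where none is coding), which ignores isoform use and effective length. A percentile is the percent of genes at or below a level. Positions are those of GRCm38 by symbol match and were not used with any coordinate of the authors. Words of 31 bases were compared on both strands with all other GENCODE M21 transcripts, and near copies were aligned globally with Biopython 1.88. The level calculation was run on simulated levels built with the same length term that it removes, which checks the arithmetic only. Tables were handled with pandas 2.3.3 and numpy 2.4.6. All 9 members, a list of 45 other complement symbols and 8 lists of cell type markers were looked up. For both kinds of list, symbols that were not listed are mostly given as counts. One further symbol of the complement list is not reported here. The members and lists were chosen with earlier results of these data known. The alternatives were coding length, no length correction and a minimum mean of 1 log2 CPM.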

Additional observations from a re-analysis of the deposited data

How the results depend on the processing

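The median level of the 9 complement genes was 4.96 log2 CPM per kilobase of transcript, 5.46 per kilobase of coding sequence and 6.48 with no length correction. Their median percentile per gene among all genes was 89.3, and it was 87.3 among the 11896 genes with a mean of at least 1 log2 CPM, 88.1 per kilobase of transcript and 79.9 per kilobase of coding sequence. The C1q chains took the first 3 places, *Serping1* the fourth, *C1s1* the fifth and *C3* the sixth with either length. Without a length correction *C3* came first and *C1qa* second, and *C1s1* came before *C1qc* and *Serping1*. No paired analysis was possible because the table gives 1 mean per gene over all samples. For the same reason the planned genotype test, the filter and pseudocounts for it and the fits leaving out each replicate were not run. The unknown depth and the lack of values per mouse limit every level.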

Other observations

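The table lists genes with very low means. Of the 40 listed complement genes 8 had a mean under 0 log2 CPM, a larger share than the 8.55% of all genes (1198 of 14015). The 9 members were not among these 8, since their lowest mean was 4.46. This list was chosen with earlier results known, and the difference in share was not tested. The lowest mean of any gene was -4.08. A gene above 1 CPM in 3 of 6 samples has values over 0 log2 CPM in these, if filter and means share the same scaling. On that condition a mean of -3.79 for *C1rb* would put the average of the other 3 samples below -7.58. The study's methods name the TMM normalization after the filter, so this bound is approximate. The lowest mean listed is over all 6 samples and sets no floor for 3 of them. On the same condition, 114 genes with a mean under -2.04 log2 CPM would average below the lowest mean listed in their other 3 samples. *C8a* at -2.21 is among them. Whether the filter was applied as described was not tested, since it needs values per sample.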
